A study of Arabidopsis thaliana with 12 samples.

Results

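The genes described here are those whose RNA fell at least 2-fold in siz1-3 plants after 2 h of dehydration, while in Col-0 plants given the same treatment it fell by less than 0.25 on the log2 scale or not at all. SIZ1 helps to join SUMO, a small protein tag related to ubiquitin, to its targets, many of which are nuclear regulators of transcription; it is the main SUMO E3 ligase of plants. Mutants of SIZ1 are known for raised salicylic acid, for defence genes that are on without a pathogen, and for small stature, and dehydration is known to repress growth, photosynthesis and part of the biotic defence programme through abscisic acid and other signals. The series set siz1-3, a mutant line of SIZ1 in Arabidopsis thaliana, beside Col-0, the wild-type accession Columbia, each without and with the drought treatment, on ATH1 arrays. Its 12 arrays form 4 groups of 3: siz1-3 after dehydration, siz1-3 control, Col-0 after dehydration and Col-0 control. Plants were 3 weeks old per the labels, which give 1 Col-0 control as 21 days. The labels name no tissue, do not say how the plants were dried or pooled, and do not say whether replicates are separate plantings, so the p-values below cover the spread among these arrays, which may be technical.

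The members were chosen by the measured changes on dehydration and the siz1-3 control level, as group means of log2(signal + 16), with signal the deposited intensity of a probe set, the group of short probes that reads 1 transcript. A probe set belonged where dehydration minus control was at most -1 in siz1-3 and at least -0.25 in Col-0, and where the mean signal of siz1-3 control was at least 100. Of 22746 probe sets that are not array controls, 76 were members, after EXPA4, an expansin gene that met the limits, was left out by name. The members pair with 43 genes through 43 probe sets with exactly 1 gene each; 2 further probe sets read several genes and 31 are not listed in the annotation used, so 40.8% of the members go without a gene name. A second division used the control plants alone: 32 members, 15 of them named, were at least 2-fold higher in siz1-3 control than in Col-0 control, and 44, of which 28 are named, were not. All 12 arrays entered these rules, so every value of a member below is a description and carries no test.

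Probe sets with a siz1-3 control signal of at least 100 numbered 10818, and 2113 of them, or 19.5%, fell at least 2-fold in dehydrated siz1-3. Most of those 2113 also went down in Col-0: 1173 by at least 2-fold and 863 by less than that but more than 0.25 on the log2 scale, while 77, EXPA4 included, met the limit for Col-0. The members are thus 1 end of a continuous range, in which the 2113 had a median Col-0 change of -1.09. UBC16, a ubiquitin-conjugating enzyme, lay just inside the siz1-3 limit at -1.005, and the chloroplast ribosomal protein gene rpl33 just outside it at -0.994. On the Col-0 limit, AT3G15090 at -0.256 and AT1G53070 at -0.257 missed membership, the second of them with a siz1-3 change of -2.008. Within 0.1 of the siz1-3 limit there were 24 members and 35 probe sets just outside it.

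**Figure D1:**
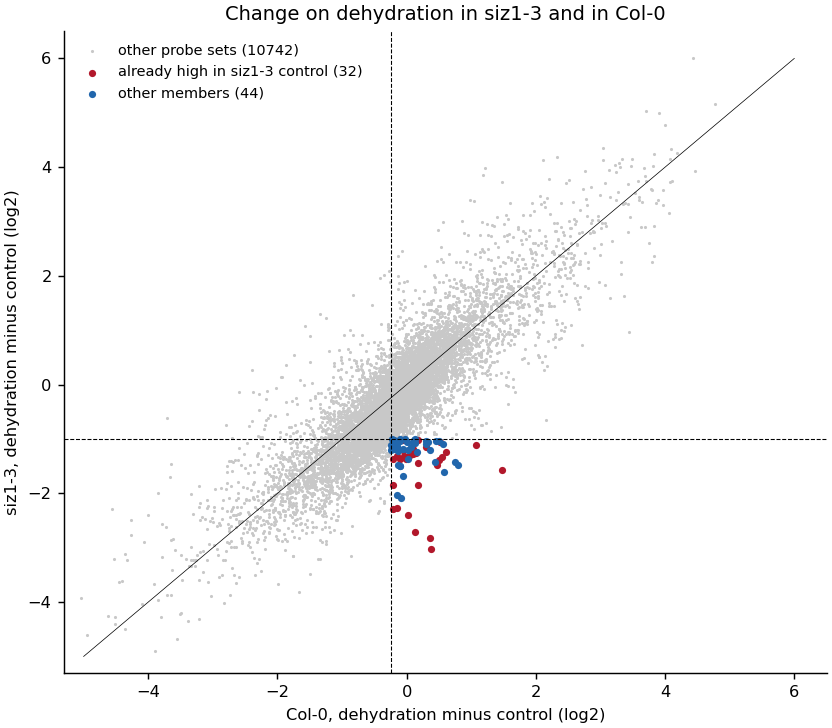
Each point is a probe set with a siz1-3 control signal of at least 100; the y axis gives the log2 change on dehydration in siz1-3, the x axis that in Col-0, both as log2(signal + 16), and dashed lines mark the limits. The 32 red and 44 blue members lie at the edge of a diagonal cloud of 10742 other probe sets, with siz1-3 changes of -3.03 to -1.0.

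In every member all 3 dehydrated siz1-3 arrays lay below all 3 siz1-3 control arrays. That ordering was seen in 37.3% of all probe sets and 52.6% of the 10818, and the rule favours it. The median change in siz1-3 was -1.2 over the 76 members, against -0.3 over the 10818. The median change in Col-0 was 0.01, against -0.18 over the 10818. The Col-0 dehydration arrays were all above the Col-0 controls in 13 members (17.1%), against 17.0% of all probe sets and 21.4% of the 10818. They were all below them in 4 (5.26%), against 28.5% and 41.3%. The limit on the Col-0 change itself keeps this last count low.

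Among the 32 members that were already high in siz1-3 control, the largest falls were in genes whose RNA was near the bottom of the scale in Col-0 with or without dehydration. The control difference between siz1-3 and Col-0 had a median of 2.66, with a range up to 5.15. After dehydration the median difference was 0.97. It was 1.52 over all 702 probe sets with a siz1-3 control signal of at least 100 that were at least 2-fold higher in siz1-3 control. The level in siz1-3 stayed above that of Col-0 in 29 of the 32 (90.6%), against 98.3% of those 702. The members were chosen for a fall in siz1-3, which favours a lower share. Where the Col-0 signal is dim, the size of these differences is set in part by the added 16.

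AT1G51920, a gene to which no role is assigned here and which is named for its position at the head of the group, had the most negative change of all. Its signal was 9.98, 5.79 and 13.1 in dehydrated siz1-3 and 193, 176 and 209 in siz1-3 control, against 4.72, 8.47 and 13.1 in dehydrated Col-0 and 1.93, 6.86 and 0.653 in Col-0 control. Only the siz1-3 control arrays stood high, and the dehydrated arrays of the 2 genotypes overlapped. The change was -3.03 ± 0.17 in siz1-3 and 0.37 ± 0.17 in Col-0 (log2, SE from the fit of all 12 arrays).

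AT2G44380 encodes a protein with cysteine- and histidine-rich DC1 domains, a class known from plant stress and defence responses. Its signal was 9.04, 11.8 and 2.64 in dehydrated siz1-3 and 174, 137 and 142 in siz1-3 control, against 16.5, 9.91 and 6.42 in dehydrated Col-0 and 1.21, 1.08 and 14.2 in Col-0 control. As with AT1G51920, 3 arrays were high and the other 9 were at low signal, and the dehydrated genotypes overlapped (log2 difference -0.18). The gene next to it, AT2G44370, encodes another DC1 protein and is no member, because its siz1-3 control signal of 49.8 ± 11.2 (SD, n = 3) is under the limit of 100. It averaged 4.57 ± 3.62 in dehydrated siz1-3, against 1.26 ± 0.321 in dehydrated Col-0 and 5.04 ± 6.76 in Col-0 control. AT2G44370 fell by 1.68 in siz1-3 (limma, adjusted p = 2.3e-05), while its Col-0 value was -0.24 (adjusted p = 0.418), from a Col-0 control signal too low for a fall of that size to be recorded.

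The neighbouring genes of AT5G52740 had more room for a fall in Col-0 than AT5G52740 itself. AT5G52740, AT5G52750 and AT5G52760 lie in a row and encode small proteins with a heavy-metal-associated domain. AT5G52740 had 29.9, 37.6 and 36.8 in dehydrated siz1-3 and 142, 101 and 101 in siz1-3 control, against 3.63, 15.1 and 18 in dehydrated Col-0 and 9.67, 9.32 and 16.8 in Col-0 control. Its siz1-3 arrays were above all Col-0 arrays of the same treatment, before and after dehydration, and its Col-0 groups overlapped. Its Col-0 control mean of 11.9 was too low for a 2-fold fall to be recorded on this scale. The Col-0 change of AT5G52740 therefore cannot be set against the falls of its neighbours. AT5G52750 and AT5G52760 were brighter and were also higher in siz1-3 control, by 2.39 (adjusted p = 7.1e-07) and 3.81 (adjusted p = 4.9e-07) in the limma fit, in which 17.4% of all probe sets were called for this contrast. They fell in both genotypes: AT5G52750 by 1.80 in siz1-3 and 2.00 in Col-0, and AT5G52760 by 1.01 in siz1-3 and 0.96 in Col-0. The adjusted p of these 4 changes lay between 8.24e-07 and 0.00817, and the differences between the genotypes' changes, 0.20 and -0.05, had adjusted p of 0.679 and 0.953. AT2G44370, AT5G52750 and AT5G52760 were picked as neighbours of members after their values had been seen.

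AT4G20000 encodes a protein with a VQ motif, a short segment through which such proteins bind WRKY transcription factors. Its signal was 34.1, 27.8 and 48.5 in dehydrated siz1-3 and 350, 341 and 283 in siz1-3 control, against 0.954, 11 and 3.08 in dehydrated Col-0 and 2.72, 2.64 and 3.08 in Col-0 control. It fell in siz1-3, and all 3 dehydrated siz1-3 arrays remained above all 6 Col-0 arrays. AT3G26470, which encodes a protein with the RPW8 domain known from powdery mildew resistance, had 94, 83.8 and 74.6 in dehydrated siz1-3 and 196, 187 and 261 in siz1-3 control, against 17.4, 34.4 and 23.5 in dehydrated Col-0 and 37, 22 and 20.6 in Col-0 control. Its siz1-3 arrays again stayed above those of Col-0 in both conditions.

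Enzymes of small-molecule metabolism were also among the 32. BGLU31 encodes a beta-glucosidase, which removes glucose from conjugates. Its signal was 143, 112 and 109 in dehydrated siz1-3 and 292, 324 and 363 in siz1-3 control, against 1.96, 0.436 and 12.3 in dehydrated Col-0 and 2.97, 11.8 and 1.37 in Col-0 control. All 6 siz1-3 arrays were over 100 and all 6 Col-0 arrays were under 16. LUP5 encodes a triterpene synthase of the lupeol synthase family, and it had 129, 112 and 124 in dehydrated siz1-3 and 309, 277 and 279 in siz1-3 control. In Col-0 its signal was 9.35, 2.51 and 32.3 after dehydration and 1.58, 12.1 and 8.54 in controls. SAL2, a close relative of the phosphatase SAL1 that acts on a nucleotide of sulfur metabolism, had 243, 198 and 214 in dehydrated siz1-3 and 527, 479 and 544 in siz1-3 control. Its Col-0 signal was 24.3, 41.6 and 31.5 after dehydration and 31, 26.9 and 29 in controls. In LUP5 and SAL2, as in BGLU31, all 6 siz1-3 arrays were above all 6 Col-0 arrays; with Col-0 signal this low, no fold between the genotypes is given.

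AT5G64120, a class III peroxidase (PRX71) of the cell wall space, moved in opposite directions in the genotypes. Its signal was 320, 306 and 308 in dehydrated siz1-3 and 757, 628 and 693 in siz1-3 control, against 212, 203 and 309 in dehydrated Col-0 and 76.8, 108 and 135 in Col-0 control. The 3 dehydrated Col-0 arrays were above all Col-0 controls, and 1 of them reached the range of dehydrated siz1-3. The changes were -1.11 in siz1-3 and 1.07 in Col-0, so a 5.88-fold difference in controls was 1.29-fold after dehydration. AT1G52770, of the NPH3 family that takes part in phototropism signalling and in protein ubiquitination, likewise had 106, 88.6 and 89.8 in dehydrated siz1-3 and 276, 252 and 261 in siz1-3 control. It had 68.4, 79.4 and 77.4 in dehydrated Col-0 and 54.2, 32.7 and 53.5 in Col-0 control, where the dehydrated arrays were all higher. Its log2 change was -1.34 in siz1-3 and 0.55 in Col-0.

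AT1G24530, a WD40-repeat protein, and AT4G15975, a RING-finger protein of the kind that acts in ubiquitin ligation, close the list of members with a role. AT1G24530 had 84.4, 123 and 96.2 in dehydrated siz1-3 and 249, 293 and 307 in siz1-3 control, against 37.4, 44.4 and 53.2 in dehydrated Col-0 and 65.5, 28.6 and 79.1 in Col-0 control. AT4G15975 had 49.4, 51.6 and 43.1 in dehydrated siz1-3 and 109, 146 and 89.2 in siz1-3 control, against 7.65, 24.7 and 20.4 in dehydrated Col-0 and 15.7, 6.82 and 38.7 in Col-0 control. In both genes the dehydrated siz1-3 arrays stayed above the dehydrated Col-0 arrays. The remaining 3 named members, AT1G58420, AT5G22530 and AT1G63530, changed by -1.38, -1.32 and -1.05 in siz1-3, and AT1G58420 was the brightest named gene of the 15 in siz1-3 control, at 733 ± 44.6 (SD, n = 3).

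**Figure D2:**
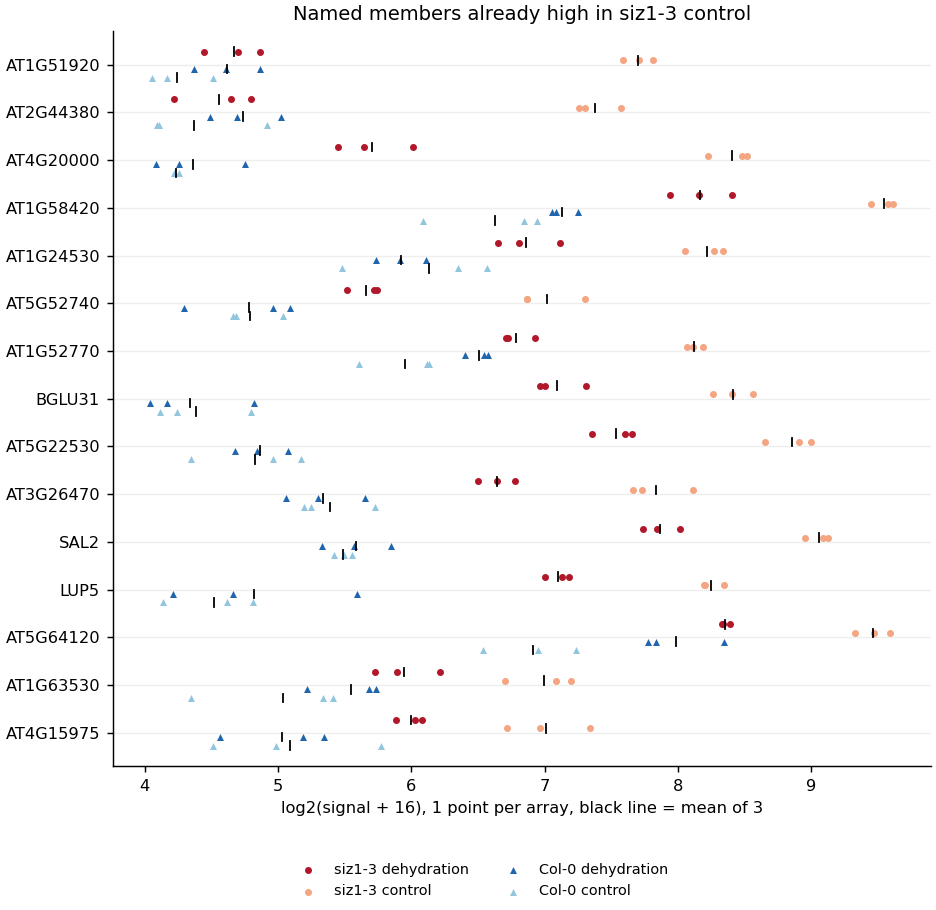
The 15 named members already high in siz1-3 control, ordered by their change in siz1-3; each point is 1 array, the x axis is log2(signal + 16), and a black line marks the mean of 3. The siz1-3 controls stand to the right of all other groups in each gene, and the dehydrated siz1-3 arrays overlap those of Col-0 in AT1G51920, AT2G44380, AT5G64120 and AT1G63530.

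Among the members without a listed gene, 2 probe sets mark the ends of this group, and were picked after their values had been seen. The probe set with the widest control difference had 834, 672 and 729 in dehydrated siz1-3 and 3196, 2546 and 2492 in siz1-3 control, against 40.2, 29.2 and 101 in dehydrated Col-0 and 85.6, 33.1 and 76.1 in Col-0 control. The brightest member, another unlisted probe set, had 1647, 1417 and 1495 in dehydrated siz1-3 and 4215, 4461 and 4888 in siz1-3 control. In Col-0 it had 4877, 4492 and 6276 after dehydration and 1645, 1783 and 2142 in controls. The order of the genotypes was turned round at the brightest member: siz1-3 arrays were all higher in controls and all lower after dehydration, with log2 changes of -1.56 in siz1-3 and 1.48 in Col-0. Of the 32 members it was the only one at least 2-fold below Col-0 after dehydration; 14 were still at least 2-fold above Col-0 (against 74.2% of all 702 probe sets with a siz1-3 control signal of at least 100 that were likewise 2-fold higher in siz1-3 control) and 17 were within 2-fold.

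Part of this group left little room for a fall in Col-0. Col-0 control signal was under 32 in 20 of the 32 members (62.5%) and in 0 of the other 44, against 0.961% of the 10818 probe sets above the siz1-3 limit. On the scale used, a probe set at 0 has a value of log2(16), and 13 of the 32 had less than 1 log2 unit between their Col-0 control mean and that bottom. Of 702 probe sets at least 2-fold higher in siz1-3 control (6.49% of the 10818), 191 fell at least 2-fold in dehydrated siz1-3. Where the Col-0 control signal was under 32, 20 of 104 such probe sets were members and 2 fell at least 2-fold in both genotypes. Where it was 100 or more, 5 of 353 were members and 76 fell at least 2-fold in both. For the 13 members with less than 1 log2 unit of room, a 2-fold fall in Col-0 could not have been recorded on this scale.

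Of the other 44 members, 27 (61.4%) had control levels within 0.5 log2 of each other in the genotypes, against 76.8% of the 10818. All siz1-3 controls lay above all Col-0 controls in 17 (38.6%, against 23.2% of the 10818). They lay below all Col-0 controls in 6 (13.6%, against 22.5%). After dehydration the siz1-3 mean was above that of Col-0 in 1 of the 44, against 40.8% of the 10818. Over the 44 the median control difference between siz1-3 and Col-0 was 0.26 on the log2 scale, and after dehydration it was -0.97. All dehydrated siz1-3 arrays lay below all dehydrated Col-0 arrays in 38 of the 44, an order that 27.9% of all probe sets and 37.7% of the 10818 showed. A difference of at least 2-fold was reached in 22 of the 44 (4.58% of the 10818). Since the limits of the rule act on both changes, these counts follow in part from the choice of members.

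AT1G31690, of the copper amine oxidase family, whose members oxidise polyamines and release hydrogen peroxide, had the most negative change. Its signal was 120, 68.8 and 66.8 in dehydrated siz1-3 and 484, 401 and 334 in siz1-3 control, against 748, 526 and 511 in dehydrated Col-0 and 567, 631 and 688 in Col-0 control. Dehydrated siz1-3 stood apart from the other 3 groups, and siz1-3 controls were already below both Col-0 groups. The log2 change was -2.08 ± 0.21 in siz1-3 and -0.09 ± 0.21 in Col-0 (SE of the fit).

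A second probe set of AT1G31690, which missed the signal limit and so is no member, read 17.3 ± 3.76 in dehydrated siz1-3 and 79.1 ± 23.7 in siz1-3 control, against 109 ± 31.0 in dehydrated Col-0 and 116 ± 12.5 in Col-0 control (SD, n = 3 each). It fell by 1.49 in siz1-3 (limma, adjusted p = 8.84e-05) and had -0.11 in Col-0 (adjusted p = 0.742). The difference between these changes was -1.37 ± 0.30 (SE, limma interaction, adjusted p = 0.0158), with 8.81% of all probe sets called in that comparison. It reads the same RNA samples as the first, so it checks the probes and not the plants. The next gene of that family, AT1G31710, averaged 135 ± 12.5 in dehydrated siz1-3 and 203 ± 29.6 in siz1-3 control, against 420 ± 33.7 in dehydrated Col-0 and 299 ± 90.4 in Col-0 control. AT1G31710 fell by 0.53 in siz1-3 (adjusted p = 0.0287) and rose by 0.50 in Col-0 (adjusted p = 0.046), and it too was picked after its values had been seen. Neither call was stable: over the alternatives the adjusted p of AT1G31710 ran up to 0.412 in siz1-3, with array medians subtracted, and up to 0.192 in Col-0, without the first Col-0 control.

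Named members with roles in the chloroplast were nuclear genes, apart from ycf3, the only one from the chloroplast genome. AT1G15290 encodes a tetratricopeptide-repeat protein related to REDUCED CHLOROPLAST COVERAGE 1, which sets how much of a cell the chloroplasts fill. Its signal was 69.7, 62.9 and 68.7 in dehydrated siz1-3 and 283, 283 and 199 in siz1-3 control, against 175, 199 and 171 in dehydrated Col-0 and 203, 223 and 150 in Col-0 control. Only the dehydrated siz1-3 arrays stood apart. RAP, needed for the maturation of chloroplast ribosomal RNA, had 137, 142 and 126 in dehydrated siz1-3 and 386, 361 and 258 in siz1-3 control, against 257, 241 and 194 in dehydrated Col-0 and 178, 251 and 251 in Col-0 control. Its dehydrated siz1-3 arrays were below all others and its siz1-3 controls above all Col-0 controls. The chloroplast gene ycf3, for a photosystem I assembly factor, had 299, 239 and 88.9 in dehydrated siz1-3 and 454, 417 and 343 in siz1-3 control. In Col-0 ycf3 had 436, 389 and 685 after dehydration and 288, 370 and 369 in controls. The third dehydrated siz1-3 array lay far below the other 2, and the third dehydrated Col-0 array well above its 2 partners. The siz1-3 change of ycf3 was -1.04 ± 0.34 (SE of the fit), and -0.69 with array medians subtracted, which misses the limit.

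RNA handling was represented by AT3G56330, a tRNA dimethylguanosine methyltransferase, and AT3G54980, a pentatricopeptide-repeat protein of the family that edits, cleaves or stabilises organelle RNA. AT3G56330 had 52.2, 49.9 and 42.4 in dehydrated siz1-3 and 163, 116 and 178 in siz1-3 control, against 126, 138 and 128 in dehydrated Col-0 and 137, 108 and 142 in Col-0 control. The 3 groups other than dehydrated siz1-3 overlapped. AT3G54980 had 56.5, 81.2 and 68.9 in dehydrated siz1-3 and 198, 139 and 188 in siz1-3 control, against 83.1, 103 and 92.8 in dehydrated Col-0 and 81.9, 139 and 98.6 in Col-0 control. Here the siz1-3 controls lay at or above the highest Col-0 array, and the dehydrated siz1-3 arrays lay just below all dehydrated Col-0 arrays.

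Regulators among the 44 included a phosphatase and a transcription factor. AT3G16560, a protein phosphatase of type 2C, the class that holds the negative regulators of abscisic acid signalling, had 99.8, 80 and 62.8 in dehydrated siz1-3 and 308, 216 and 251 in siz1-3 control, against 191, 203 and 196 in dehydrated Col-0 and 192, 231 and 216 in Col-0 control. AT5G41920 (SCL23), a GRAS-family transcription factor that acts in the endodermis and bundle sheath, had 36, 42.3 and 34.9 in dehydrated siz1-3 and 119, 102 and 110 in siz1-3 control, against 93.2, 124 and 125 in dehydrated Col-0 and 98.3, 99.8 and 99.1 in Col-0 control. In both genes dehydrated siz1-3 lay below all 9 other arrays. UBC16 read 87.2 ± 12.0 in dehydrated siz1-3 and 192 ± 35.7 in siz1-3 control, against 170 ± 27.5 in dehydrated Col-0 and 155 ± 29.7 in Col-0 control (SD, n = 3 each).

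AT4G10270, of the wound-responsive protein family, and AT4G36430, another class III peroxidase, were the dimmest named members of the 44 in siz1-3 control. AT4G10270 had 29.7, 30.6 and 23.6 in dehydrated siz1-3 and 122, 110 and 77.1 in siz1-3 control, against 48.6, 114 and 113 in dehydrated Col-0 and 45.7, 42.3 and 47.4 in Col-0 control. The first dehydrated Col-0 array stayed at the level of its controls while the other 2 were well above them. AT4G36430 had 31.2, 37.8 and 46.1 in dehydrated siz1-3 and 120, 69.5 and 115 in siz1-3 control, against 85.7, 107 and 61.2 in dehydrated Col-0 and 59.5, 68.8 and 65 in Col-0 control. Both peroxidases among the members thus fell in siz1-3 with a positive Col-0 value, 1.07 for AT5G64120 and 0.30 for AT4G36430, whose Col-0 arrays overlapped.

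AT1G21440, of the phosphoenolpyruvate carboxylase family, and SWEET1, which carries glucose across membranes, are separated by 1 gene on chromosome 1 and were the only pair of named members that lay so close. AT1G21440 had 371, 276 and 314 in dehydrated siz1-3 and 723, 796 and 640 in siz1-3 control, against 662, 558 and 617 in dehydrated Col-0 and 541, 825 and 710 in Col-0 control. SWEET1 had 140, 128 and 151 in dehydrated siz1-3 and 340, 287 and 299 in siz1-3 control, against 261, 271 and 381 in dehydrated Col-0 and 271, 231 and 209 in Col-0 control. Dehydrated siz1-3 was the low group in both, with no overlap. UGT85A5, a glycosyltransferase that puts sugar on small molecules, had 109, 92.2 and 116 in dehydrated siz1-3 and 201, 270 and 245 in siz1-3 control, against 289, 348 and 271 in dehydrated Col-0 and 308, 259 and 278 in Col-0 control. Of its relatives nearby on the chromosome, UGT85A2 changed by 0.51 in siz1-3 and 0.68 in Col-0, and UGT85A3 by 0.98 in siz1-3 and 1.82 in Col-0. UGT85A7 changed by -0.15 in siz1-3 and 0.46 in Col-0. UGT85A3 was dim, with a siz1-3 control mean of 27.4, and no test is given for these relatives.

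Secreted and wall proteins are given next, together with a short peptide of iron-deficiency signalling. AT1G62500, of the lipid-transfer protein type, had 239, 215 and 212 in dehydrated siz1-3 and 619, 517 and 471 in siz1-3 control, against 398, 478 and 410 in dehydrated Col-0 and 338, 297 and 356 in Col-0 control. The dehydrated Col-0 arrays were all above their controls, while dehydrated siz1-3 was below every other array. AT2G43550, a small cysteine-rich protein of the defensin-like class, was the brightest named member: 836, 810 and 792 in dehydrated siz1-3 and 1315, 2128 and 1737 in siz1-3 control, against 4594, 3583 and 3786 in dehydrated Col-0 and 2470, 3390 and 2901 in Col-0 control. Its siz1-3 arrays were all below those of Col-0 in both conditions, and the gap was 0.587-fold in controls and 0.208-fold after dehydration. XTH32, which cuts and joins xyloglucan in the wall, averaged 98.1 ± 15 in dehydrated siz1-3 and 216 ± 8.30 in siz1-3 control, against 294 ± 105 in dehydrated Col-0 and 320 ± 43.7 in Col-0 control. AT1G47400, the iron-deficiency signal peptide IRON MAN 1, averaged 185 ± 16.6 in dehydrated siz1-3 and 396 ± 94.5 in siz1-3 control, against 556 ± 113 in dehydrated Col-0 and 516 ± 108 in Col-0 control (SD, n = 3 each). Whether its probes also read near copies of this short gene is not known here.

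**Figure D3:**
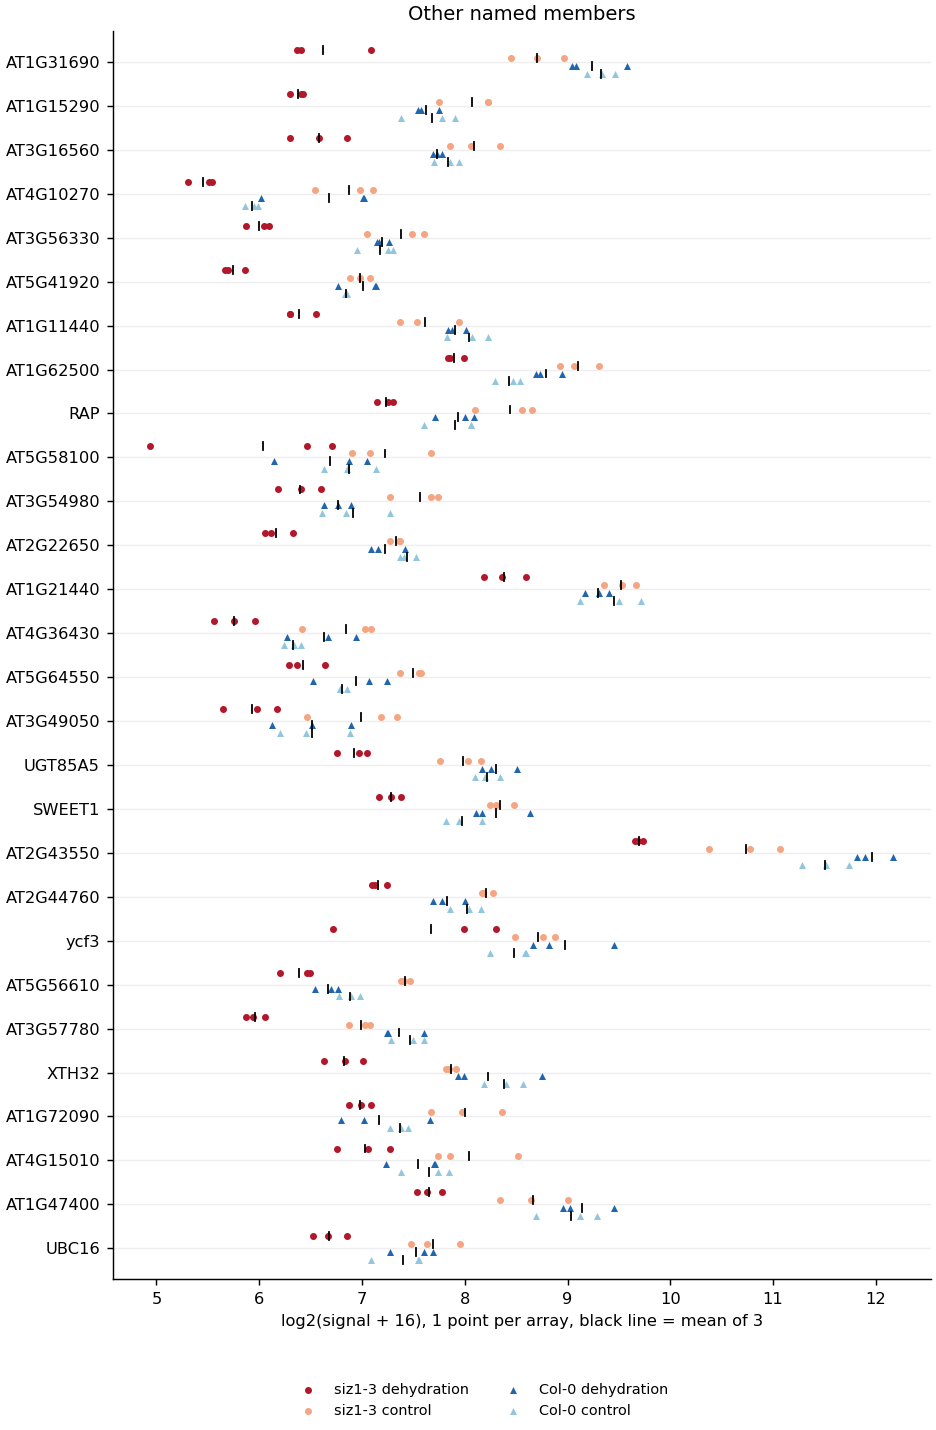
The 28 named members that were not high in siz1-3 control, ordered by their change in siz1-3; each point is 1 array, the x axis is log2(signal + 16), and a black line marks the mean of 3. Dehydrated siz1-3 is the lowest group by its mean in each gene, and single arrays stand apart in AT5G58100 and ycf3.

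The remaining named members of the 44 were AT1G11440, AT5G58100, AT2G22650, AT5G64550, AT3G49050, AT2G44760, AT5G56610, AT3G57780, AT1G72090 and AT4G15010. Their log2 changes in siz1-3 ran between -1.23 at AT1G11440 and -1.01 at AT4G15010. AT5G56610 was 1 of the 4 members in which all dehydrated Col-0 arrays lay below their controls. AT5G58100 rests on 1 array: its signal was 72.2, 14.6 and 88.4 in dehydrated siz1-3 and 104, 188 and 119 in siz1-3 control, against 116, 54.8 and 101 in dehydrated Col-0 and 125, 100 and 83.2 in Col-0 control. Members without a listed gene included the second most negative of the 44, at 254, 234 and 225 in dehydrated siz1-3 and 1200, 1011 and 871 in siz1-3 control, against 1118, 1187 and 1190 in dehydrated Col-0 and 1151, 1469 and 1293 in Col-0 control. Another, the brightest of the 44 in siz1-3 control, had 609, 620 and 599 in dehydrated siz1-3 and 1971, 1801 and 1905 in siz1-3 control, against 2524, 3200 and 3165 in dehydrated Col-0 and 1765, 2325 and 1879 in Col-0 control. Both probe sets, picked after their values had been seen, had like levels in the controls of the 2 genotypes.

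**Figure D4:**
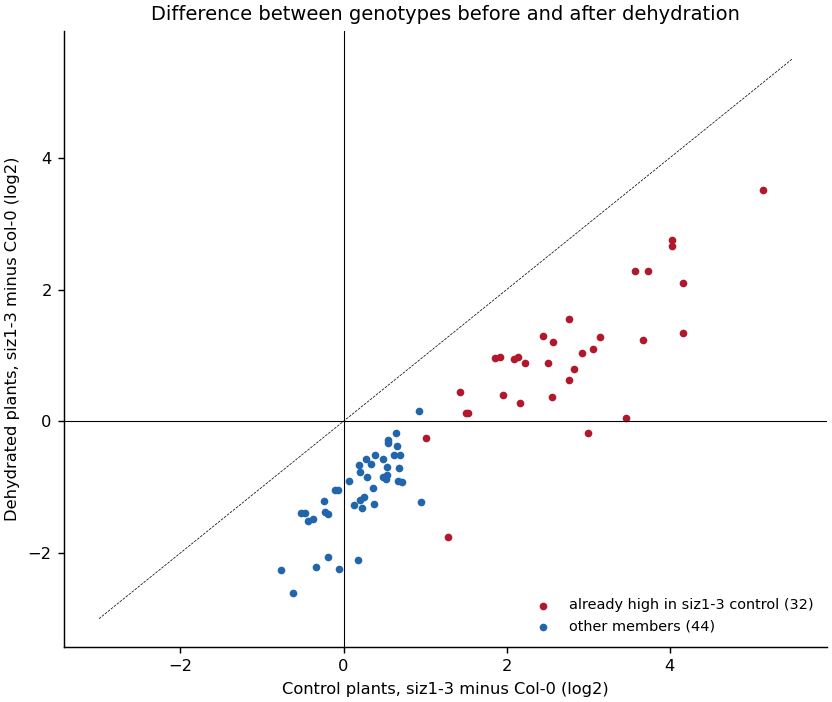
For each member, the x axis gives the log2 difference between siz1-3 and Col-0 in controls and the y axis the same after dehydration; the dashed line marks equal differences. The 32 members high in siz1-3 control move down to a median of 0.97 after dehydration and the other 44 to -0.97.

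Lists of pathway genes were examined beside the members, and no member is in any of them, although only 33 of 259 listed genes pair with a probe set in the annotation used. Of 3 measured genes of salicylic acid and defence, SAG101, a partner of the immune regulator EDS1, and WRKY53, a senescence and defence transcription factor, fell in both genotypes, and the glutaredoxin GRX480 rose in both. By limma over all probe sets, 47.1% were called for dehydration in siz1-3 and 37.1% in Col-0. WRKY53 averaged 849 ± 33.9 in dehydrated siz1-3 and 1839 ± 152 in siz1-3 control, against 116 ± 34.9 in dehydrated Col-0 and 529 ± 116 in Col-0 control (SD, n = 3 each). It was higher in siz1-3 control by 1.79 (adjusted p = 2.72e-05), as the 32 members were, but fell by 1.1 in siz1-3 (adjusted p = 0.00037) and by 2.05 in Col-0 (adjusted p = 2.45e-06). SAG101 fell by 0.49 in siz1-3 (adjusted p = 0.00379) and by 1.28 in Col-0 (adjusted p = 2.24e-06), the first of which was not called with array medians subtracted (adjusted p = 0.329).

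In wall synthesis, 2 of 4 measured genes fell in siz1-3 and 2 of 4 in Col-0. COB, needed for oriented cellulose deposition, fell by 0.76 in siz1-3 (adjusted p = 0.000136) and 0.33 in Col-0 (adjusted p = 0.0404), and IRX10, a xylan synthase subunit, fell by 0.85 in siz1-3 (adjusted p = 0.000356) and had -0.29 in Col-0 (adjusted p = 0.149). With array medians subtracted the COB value in Col-0 was not called (adjusted p = 0.48). The differences between the genotypes' changes had adjusted p of 0.134 for COB and 0.122 for IRX10. CSLC4, the other gene that fell in Col-0, went the other way. It fell by 0.52 there (adjusted p = 0.0431, up to 0.231 over the alternatives) and had 0.22 in siz1-3 (adjusted p = 0.379). Its difference had an adjusted p of 0.107, and IRX15 was called in neither genotype. All 3 measured photosynthesis genes, LHCB4.1, RCA and PRK, fell in both genotypes, and PRK fell by 1.72 in siz1-3 and by 1.48 in Col-0. LHCB4.1 was not called with array medians subtracted (adjusted p = 0.782 in siz1-3 and 0.418 in Col-0), nor was RCA in Col-0 (adjusted p = 0.0689). Of the lists further from the members, 4 of 5 measured genes of dehydration and abscisic acid rose in each genotype, and 3 of 3 glucosinolate genes fell in siz1-3, with 1 falling and 1 rising in Col-0. By the limma interaction, which called 8.81% of all probe sets, 2 of these 3 had the lower change in siz1-3. The differences were -2.16 at UGT74B1 (adjusted p = 0.000196) and -1.93 at AT2G31790 (adjusted p = 0.000115). In the dehydration list 3 of 5 were called the other way. Of 4 receptor kinases 2 fell in siz1-3 and 3 in Col-0, and neither of 2 jasmonate genes was called.

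Facts of the series that touch these values are few. Array medians lay between 65.5 and 88.2, and the log2 arrays correlated at 0.98 to 0.991 within groups and 0.857 to 0.959 between groups. Calls in dehydrated siz1-3 were 3482 higher and 7225 lower, and with array medians subtracted 6699 higher and 4107 lower, because that scaling moves the median of all probe sets by 0.34; in Col-0 the split was 3081 higher and 5348 lower, and 4993 and 3506 with medians subtracted. On that scale the members' changes were -2.69 to -0.66 in siz1-3 and -0.03 to 1.69 in Col-0. SIZ1 itself averaged 94.6 ± 11.4 in dehydrated siz1-3 and 170 ± 8.83 in siz1-3 control, against 406 ± 53.7 in dehydrated Col-0 and 388 ± 89.1 in Col-0 control at the brighter of its 2 probe sets. At the dimmer one it averaged 78.7 ± 16.5 in dehydrated siz1-3 and 87.6 ± 23.3 in siz1-3 control, against 16 ± 16.2 in dehydrated Col-0 and 17.3 ± 8.41 in Col-0 control, the opposite order (SD, n = 3 each). Where either lies relative to the mutation is not given.

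Of 7 root markers 3 were measured. PYK10, a root and hypocotyl beta-glucosidase, averaged 477 ± 20.3 in dehydrated siz1-3 and 662 ± 53.5 in siz1-3 control, against 964 ± 220 in dehydrated Col-0 and 926 ± 33.4 in Col-0 control (SD, n = 3 each). The root hair genes EXPA7 and EXPA18 were dim, with group means of 27.8 or less. PYK10 fell by 0.46 in siz1-3 (limma, adjusted p = 0.0271) and had 0.03 in Col-0 (adjusted p = 0.906). With array medians subtracted its siz1-3 change was not called (adjusted p = 0.572). EXPA18 fell in both genotypes, by 0.75 in siz1-3 (adjusted p = 0.00514, up to 0.0999 over the alternatives) and by 0.93 in Col-0 (adjusted p = 0.00153). EXPA7 was called in neither (adjusted p = 0.714 in siz1-3 and 0.97 in Col-0). The guard cell factor FAMA, the 1 measured of 6 guard cell markers, fell by 1.02 in siz1-3 (adjusted p = 0.00129) and by 0.84 in Col-0 (adjusted p = 0.00648). Lists for epidermis, mesophyll, vascular tissue and flowers had 0 measured genes. The part of tissue make-up in the members' values was not tested, and in bulk RNA fewer cells of a type cannot be told apart from less RNA per cell.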

How the data were processed

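Per the labels, TriZOL-extracted total RNA of siz1-3 and Col-0 plants was biotin-labelled (MessageAmp II) and read on 12 ATH1 arrays. The values are those the authors deposited, an intensity per probe set on a linear scale; their mean, trimmed by 2% at either end, was 250.02 or 250.03 on each array. The sources used here do not give the software that made them, and no detection calls were used. Of 22810 rows, 64 control probe sets were left out.

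All values were analysed as log2(intensity + 16), and this pseudocount understates fold changes of dim genes. Group means gave the members. They, their groups and the gene lists were chosen with earlier results of these data known. A limma fit (version 3.58.1, R 4.3.3) of the 4 groups, with Benjamini-Hochberg adjustment over 22746 probe sets and calls under 0.05, tested non-members and gave the standard errors of log2 changes; it was tested on simulated data. The 3 arrays of a group limit the precision. Values in every array are given for members with a known role in order of their change, others by family or neighbourhood. Names came from GEO's platform annotation, updated through the TAIR10.1 gene table and used without coordinates. Other scalings, pseudocounts, limits, a replicate block and the removal of each array were tried. Python 3.11.15 and matplotlib 3.10.9 drew the figures.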

Additional observations from a re-analysis of the deposited data

Results flagged for a closer look

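Some probe sets outside the members differed in their change between siz1-3 and Col-0 by the limma interaction (siz1-3 change minus Col-0 change, log2, adjusted over all probe sets), in which 8.81% of all probe sets were called. The difference was -1.44 at AT2G44370, the DC1-domain neighbour of AT2G44380 (adjusted p = 0.00999, and 0.00195 to 0.189 over the alternatives), and all 3 dehydrated siz1-3 arrays were below all 3 siz1-3 controls there. Its Col-0 control signal, 5.04 ± 6.76 (SD, n = 3), was at the bottom of the scale, so Col-0 could not have shown a fall as large as that in siz1-3, and the difference cannot be read as one between the genotypes. At the second probe set of AT1G31690 it was -1.37 (adjusted p = 0.0158, and 0.00373 to 0.0415), and at AT1G31710, of the same copper amine oxidase family, -1.03 (adjusted p = 0.027, and 0.00401 to 0.0706). At the brighter probe set of SIZ1 it was -0.83 (adjusted p = 0.0478, and 0.0175 to 0.153). AT1G31690 is itself a member, and its second probe set reads the same RNA samples by which the members were chosen. The p-value of that probe set is thus no support from outside the members. That probe set and AT2G44370 met the limits on both changes and missed only the signal limit.

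The defence regulators SAG101 and WRKY53 differed the other way, with the larger fall in Col-0. The difference was 0.79 at SAG101 (adjusted p = 0.0122, and 0.00371 to 0.0413) and 0.95 at WRKY53 (adjusted p = 0.0462, and 0.0117 to 0.135). Both were higher in siz1-3 control than in Col-0 control, as were the 32 members of that kind, which the rule chose for their lack of a fall in Col-0.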

How the results depend on the processing

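The number of members depends on every limit. The 76 members became 44 with a pseudocount of 64, of which 33 are among the 76. They became 94 with a pseudocount of 1, of which 69 are among the 76. They became 45 with a siz1-3 control signal of at least 200 and 96 with one of at least 50. The members numbered 39 with a Col-0 change of at least 0 and 14 with a siz1-3 change of at most -1.5. They became 41 where Col-0 control signal too had to be at least 100, a setting chosen after seeing the data. The 32 already high in siz1-3 control became 18 with the limit of 200, and 5 or 12 where Col-0 control also had to reach 100 or 32. Leaving out 1 array at a time gave 73 to 94 members and 28 to 39 already high. Quantile normalization gave 53 members, of which 38 are among the 76, and subtraction of array medians gave 55, of which 27 are. Of these 38 and 27, 23 and 15 were already high in siz1-3 control before and after the scaling. Among named members of the 44, only AT1G31690, AT1G15290, AT3G16560 and AT3G56330 stayed under both scalings. Those that stayed under neither included SWEET1, UGT85A5, AT5G41920, UBC16, XTH32, ycf3, AT4G36430 and AT1G47400. Of the named among the 32, LUP5, AT3G26470, AT4G15975 and AT1G63530 stayed under neither. In each of the 12 settings without 1 array, 37 of the 76 were members, and 16 were members in each of those and under both scalings.

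With the members held as chosen, 14 of the 32 were still at least 2-fold above Col-0 after dehydration, against 22 with a pseudocount of 1 and 8 with 64, and 14 to 19 without 1 array. Of the other 44, 22 were at least 2-fold below Col-0, against 12 with a pseudocount of 64, and 19 to 23 without 1 array.

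Deviations of same-numbered arrays correlated weakly, at -0.044 to 0.132 over all pairs of groups, and those of different-numbered arrays at -0.111 to 0.089. Between dehydration and control of the same genotype, same-numbered arrays correlated at 0.01 to 0.053 and different-numbered ones at -0.046 to 0.002. A weak pairing by replicate number is thus not excluded. With the replicate number as a block, 10586 probe sets were called for dehydration in siz1-3 and 8304 in Col-0, against 10707 and 8429 without it. The interactions of SIZ1 (adjusted p = 0.057) and WRKY53 (adjusted p = 0.0576) lost their call under the block. Among single-gene values outside the members 568 kept their side of the threshold and direction, 46 lost a call, 9 gained one and none was reversed. Counts called in either direction for dehydration in each genotype, and for siz1-3 against Col-0 in each condition, stayed within 1.5 times those reported. The 2003 interactions became 1271 without the second and 1270 without the third dehydrated siz1-3 array. With array medians subtracted, 637 interactions were negative and 1229 positive, against 1129 and 874. Low signals could not be told from background, since no detection calls were used.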
